A study of Rattus norvegicus with 3 samples.

Results

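The nuclear genes for complexes II, III and IV of the respiratory chain, for cytochrome c and for ATP synthase were examined in rat tibialis anterior, a fast muscle of the lower leg. Genes were taken by symbol: Sdha, Sdhb, Sdhc, Sdhd, Cyc1 and Cycs, and every symbol starting with Uqcr, Cox4, Cox5, Cox6, Cox7, Cox8 or Atp5. This gave 44 genes out of 14506 with a probe set of a single symbol, and 53 of 29214 probe sets. Of the 44, there were 4 genes of complex II, 8 of complex III with cytochrome c, 15 of complex IV, 16 of ATP synthase and 1 pseudogene, Cox6c-ps1. Cyc1, Uqcr10, Cox6b1, Cox7a1 and Atp5mf were not analysed here.

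The study compared muscle given a plasmid for the lipid droplet protein Plin5 (OXPAT, in pcDNA3.1 with a CMV promoter), muscle given one for Plin2 (ADRP, in pENTR with a CMV promoter) and muscle given pcDNA3.1 without an insert. All rats were male Wistar animals of 11 weeks that ate a 45% fat diet for 3 weeks, and 150 µg of plasmid was electroporated into the muscle after 2 of those weeks. Muscle was taken 8 days later, and equal RNA from 6 rats per group was pooled and hybridised to 1 whole-transcript array, so the 3 groups are 3 arrays. The Plin2 plasmid differs from the empty plasmid in backbone as well as insert, and these cannot be told apart. With 1 array per group there is no spread between animals, no test and no p-value, and every difference below describes these 3 pools.

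Complex II (succinate dehydrogenase) passes electrons from succinate to coenzyme Q, complex III passes them on to cytochrome c, and complex IV (cytochrome c oxidase) hands them to oxygen. Complexes III and IV pump protons across the inner mitochondrial membrane, and ATP synthase, complex V, lets them flow back to make ATP. Several complex IV subunits come in paired forms, one made in most tissues and one made mainly in heart and skeletal muscle. Muscles and fibres that depend on oxidative metabolism hold more of all these complexes than glycolytic ones.

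Values are log2 expression levels from robust multi-array average (RMA), and a difference is the level on one array minus that on another. A gene was counted as higher or lower when the difference reached 1.2-fold, 0.26 on the log2 scale. The array medians over all probe sets were 6.37 (Plin5), 6.40 (Plin2) and 6.38 (empty vector). Plin5 read 8.30 (Plin5 array), 6.79 (Plin2 array) and 7.52 (empty vector array), and Plin2 read 10.08, 10.71 and 9.99 in the same order, so each was highest where it had been introduced. All 14 markers of skeletal muscle fibres had a signal of at least 12.4 as a mean over the arrays, so the tissue label holds, whereas 3 of 7 fat cell markers lay under the dim level of 5.34. Of the 44 respiratory genes, 42 lay above the dim level (the 25th percentile of all genes by mean over the 3 arrays); the others were the testis form Cox8c and the pseudogene. Most of the probe sets gave strong signals, with 38 of 44 in the upper 10% of all genes, and such signals can be compressed on arrays.

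On the Plin5 array the respiratory genes were slightly above the empty vector array. The difference was above 0 for 33 of 44 genes, below 0 for 5 and exactly 0 for 6. Of all 10879 genes above the dim level, 2812 were above 0, 3699 below 0 and 4368 exactly 0. The median over the 44 was 0.08 log2 units, against 0.00 over all genes. Only 2 of the 44 genes were higher by at least 1.2-fold, Cox7b and Sdhb, where 1.52% of all genes were. None of the 44 was lower by 1.2-fold, where 5.71% of all genes were. None reached 1.5-fold in either direction, against 0.221% of all genes higher and 1.42% lower. For either plasmid, a change in the number of fibres of a type and one in RNA per fibre cannot be told apart in whole muscle. The number of genes below 0 depended on the scaling: it was 2 after each array was centred on its median and 11 after another quantile normalization.

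On the Plin2 array the same genes were lower, and by more. The difference from the empty vector array was below 0 for 38 of 44 genes, above 0 for 3 and exactly 0 for 3. Of all 10879 genes above the dim level, 3448 were below 0, 4168 above 0 and 3263 exactly 0. The median over the 44 was −0.41 log2 units (1.33-fold lower), against 0.00 over all genes. A decrease of at least 1.2-fold was found for 34 of the 44, against 15.5% of all genes, and of at least 1.5-fold for 12, against 5.8% of all genes. The only gene higher by 1.2-fold was Cox8a, at 0.26 just past the limit, where 19.4% of all genes were higher, and no gene was higher by 1.5-fold, where 8.84% were; after median-centring it stood at 0.21. Over all genes, signal strength moved with this result. Within the 42 respiratory genes above the dim level, the Spearman rank correlation of this difference with level was 0.15. Brighter genes among them thus tended weakly to smaller decreases. The trend of all genes at the median level of the 44 was −0.13, and after a loess correction for level the median over the 44 was −0.26 with 22 genes lower, against 14.9% of all genes under the same correction.

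**Figure D1:**
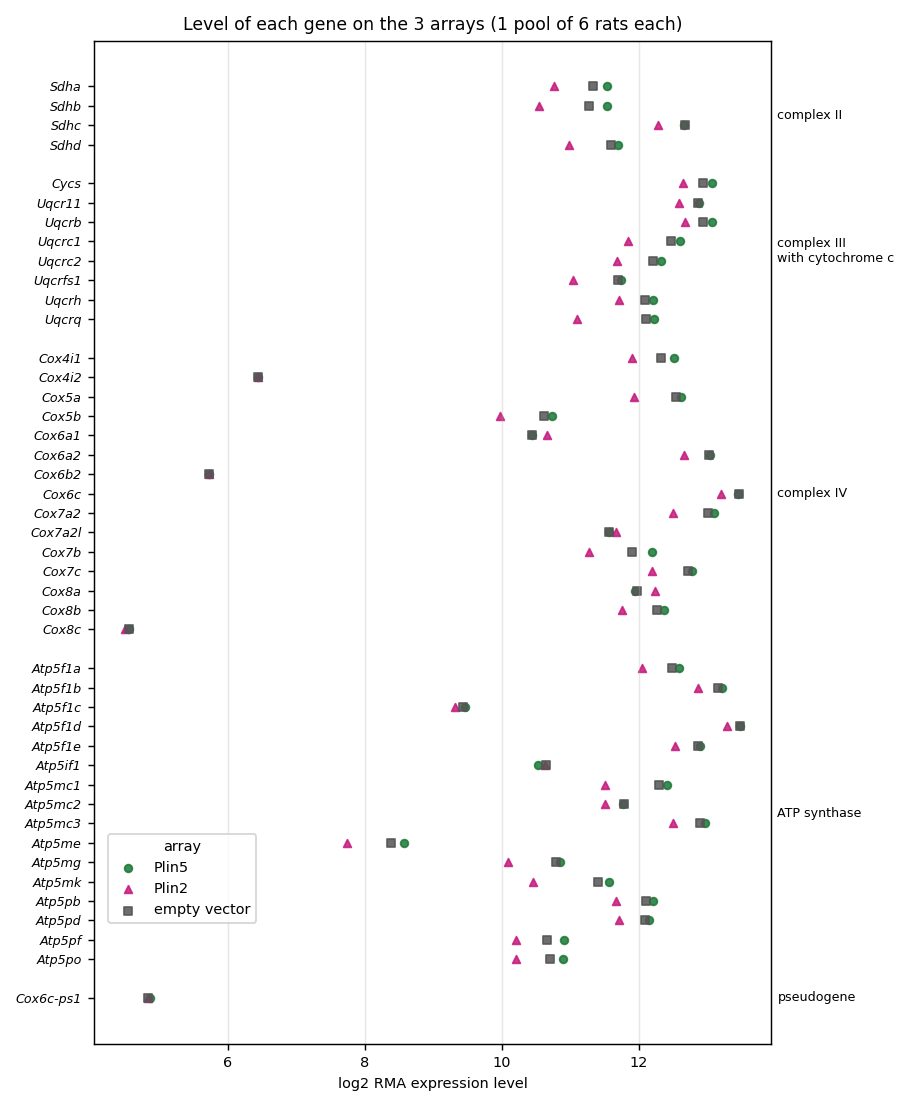
Log2 RMA expression level (horizontal axis) of each of the 44 genes, grouped by complex; each symbol is 1 array made from a pool of 6 rats. For 37 of 44 genes the Plin2 array (triangles) held the lowest value, as it did for 29.7% of all genes above the dim level, and for Cox6a1, Cox7a2l and Cox8a it held the highest.

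Complex II showed the difference in all of its subunits on the Plin2 array. Sdhb, the iron-sulfur subunit, stood at 11.53 on the Plin5 array, 10.54 on the Plin2 array and 11.26 on the empty vector array, a difference of 0.27 for Plin5 (1.21-fold higher) and of −0.73 for Plin2 (1.66-fold lower), each against the empty vector. Sdha, the flavoprotein that oxidises succinate, stood at 11.54 (Plin5), 10.75 (Plin2) and 11.33 (empty vector), differences of 0.20 and −0.58. Thus both catalytic subunits were highest on the Plin5 array and lowest on the Plin2 array. The membrane anchor Sdhd, at 11.69 (Plin5), 10.98 (Plin2) and 11.59 (empty vector), had differences of 0.11 and −0.61. The other anchor, Sdhc, stood at 12.65 (Plin5), 12.28 (Plin2) and 12.68 (empty vector), so it was 0.40 below the empty vector on the Plin2 array and within 0.03 of it on the Plin5 array. Over the 4 genes the median difference was 0.16 for Plin5 and −0.59 for Plin2.

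In complex III with cytochrome c, all 8 genes were above 0 on the Plin5 array, within a narrow range from 0.02 (Uqcr11) to 0.14 (Uqcrc1) and none by 1.2-fold. On the Plin2 array all 8 were lower by at least 1.2-fold, against 15.5% of all genes. The size ranged from −0.26 (Uqcrb) to −1.01 (Uqcrq), with a median of −0.45. Uqcrq, a small subunit of the membrane part, had the lowest value of the 44 differences: 12.22 on the Plin5 array, 11.10 on the Plin2 array and 12.11 on the empty vector array (2.01-fold lower for Plin2). The Rieske iron-sulfur protein Uqcrfs1 stood at 11.74 (Plin5), 11.04 (Plin2) and 11.69 (empty vector), differences of 0.05 and −0.65. The core protein Uqcrc1 stood at 12.60 (Plin5), 11.84 (Plin2) and 12.47 (empty vector), differences of 0.14 and −0.62. These 3 subunits were past 1.5-fold on the Plin2 array, and the core protein Uqcrc2 (−0.53) was between the limits. The smaller differences belonged to the hinge protein Uqcrh (−0.38), to cytochrome c itself, Cycs (−0.30), and to the small subunits Uqcr11 (−0.27) and Uqcrb (−0.26). Cycs, Uqcr11 and Uqcrb also had the brightest signals of the 8 genes, and the part of signal strength in this order was not tested. Cycs stood at 13.07 (Plin5), 12.64 (Plin2) and 12.94 (empty vector); Uqcr11 at 12.88, 12.58 and 12.86; and Uqcrb at 13.07, 12.67 and 12.94 in the same order.

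Complex IV was the one complex with genes on both sides of 0 on the Plin2 array. On the Plin2 array 9 of its 15 genes were lower by 1.2-fold and 1 was higher, against 15.5% and 19.4% of all genes. The median was −0.37. On the Plin5 array 8 were above 0, 2 below and 5 equal, with a median of 0.02. Keeping only genes brighter than the median gene left out Cox4i2, Cox6b2 and Cox8c. The medians over the other 12 genes were −0.46 (Plin2) and 0.069 (Plin5). Cox7b, a small structural subunit, stood at 12.19 on the Plin5 array, 11.26 on the Plin2 array and 11.90 on the empty vector array. Its difference of 0.29 for Plin5 (1.23-fold higher) was the highest of the 44, and for Plin2 it was −0.64. Cox5b, which binds zinc, stood at 10.73 (Plin5), 9.98 (Plin2) and 10.62 (empty vector), differences of 0.12 and −0.64. Cox5a stood at 12.62 (Plin5), 11.92 (Plin2) and 12.53 (empty vector), differences of 0.08 and −0.61. Thus Cox5a, Cox5b and Cox7b were past 1.5-fold on the Plin2 array, and no other complex IV gene was. Cox4i1, the general form of subunit 4, stood at 12.50 (Plin5), 11.89 (Plin2) and 12.32 (empty vector), differences of 0.18 and −0.43. Cox7c was also lower on the Plin2 array (−0.52), with a Plin5 difference of 0.06. Cox6c stood at 13.44 (Plin5), 13.19 (Plin2) and 13.46 (empty vector), differences of −0.01 and −0.27. Forms known mainly from other tissues showed little or no difference: the lung form Cox4i2 (6.43) and Cox6b2 (5.72), known from testis, had the same value on all 3 arrays, and Cox8c, also a testis form, stood between 4.50 and 4.55. The pseudogene Cox6c-ps1 stood at 4.86 (Plin5), 4.84 (Plin2) and 4.84 (empty vector), under the dim level.

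**Figure D2:**
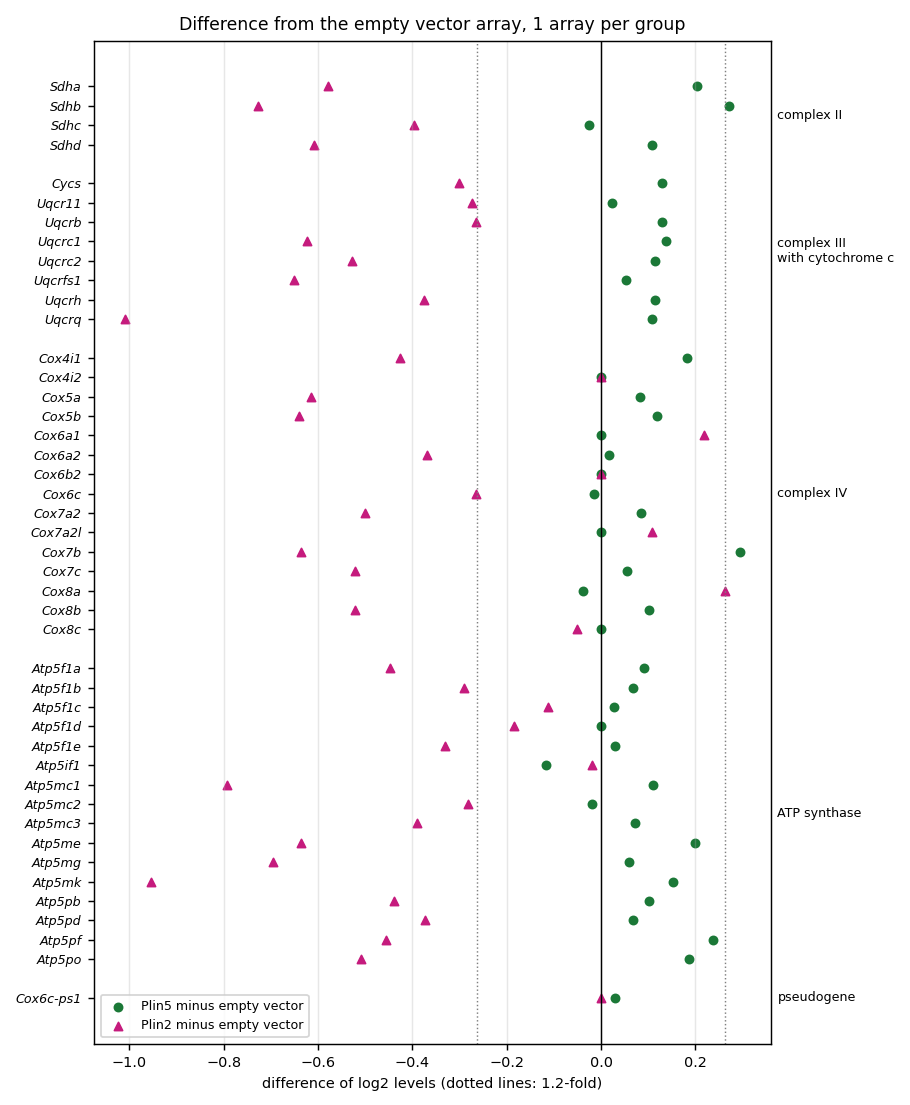
Difference of log2 levels from the empty vector array for each gene (horizontal axis), with Plin5 as circles and Plin2 as triangles, 1 array per group; dotted lines mark 1.2-fold. Plin5 differences lie between −0.12 and 0.29, and Plin2 differences between −1.01 and 0.26.

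The paired forms of complex IV subunits went apart on the Plin2 array. Cox6a2, the heart and muscle form of subunit 6A, stood at 13.04 on the Plin5 array, 12.65 on the Plin2 array and 13.02 on the empty vector array, a Plin2 difference of −0.37. Its ubiquitous counterpart Cox6a1 stood at 10.44 (Plin5), 10.66 (Plin2) and 10.44 (empty vector), a Plin2 difference of 0.22. The muscle form was thus lower by more than 1.2-fold. The ubiquitous form was above 0 but short of that limit (1.16-fold), and the gap between their differences was −0.59. The signs were the same for subunit 8, where the ubiquitous form only just reached the limit. Cox8b, the heart and muscle form, stood at 12.37 (Plin5), 11.74 (Plin2) and 12.27 (empty vector), and the ubiquitous form Cox8a at 11.94 (Plin5), 12.24 (Plin2) and 11.97 (empty vector). Their Plin2 differences were −0.52 and 0.26, a gap of −0.78. Both Plin2 gaps kept their sign and stayed within a factor of 1.5 after quantile normalization and after loess correction. Median-centring shifts both genes of an array alike, so it cannot change a gap.

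On the Plin5 array the gaps were small: 0.02 for Cox6a2 minus Cox6a1, which changed sign to −0.00698 after quantile normalization, and 0.14 for Cox8b minus Cox8a. A general form was not always above 0 on the Plin2 array. Cox7a2, the ubiquitous form of subunit 7A, stood at 13.09 (Plin5), 12.50 (Plin2) and 13.00 (empty vector), a difference of −0.50 for Plin2. By contrast its relative Cox7a2l, a factor that joins complexes III and IV in supercomplexes, stood at 11.55 (Plin5), 11.66 (Plin2) and 11.55 (empty vector), a Plin2 difference of 0.11. Cox6a1, Cox8a and Cox7a2l were the only genes of the 44 above 0 on the Plin2 array with the values as deposited.

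**Figure D3:**
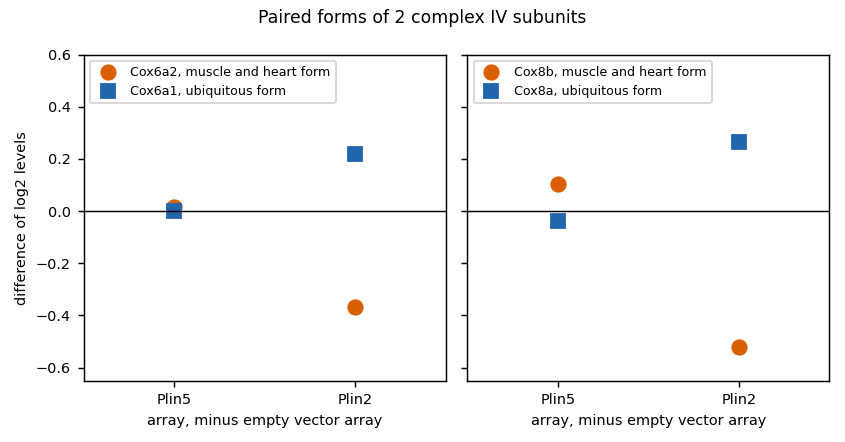
Difference of log2 levels from the empty vector array (vertical axis) for the muscle and heart form (circles) and the ubiquitous form (squares) of subunits 6A and 8 of complex IV, for the Plin5 and Plin2 arrays. On the Plin2 array Cox6a2 and Cox8b lie at −0.37 and −0.52 and Cox6a1 and Cox8a at 0.22 and 0.26.

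The sequences before the start of these genes differ in kind, and 4 are shown because they belong to the muscle forms, a ubiquitous form and the gene with the lowest Plin2 difference. Each is the 250 bases up to the annotated start, 5′ to 3′ on the strand of the gene, from RefSeq (assembly GRCr8). The motifs searched on both strands were TNAAGGTCA for estrogen-related receptors, CCGGAAG for the ETS factor GABP and the consensus elements of NRF-1 and of MEF2, a muscle transcription factor, and capitals mark their matches; the motifs were picked with the differences known. The regions are chr1:192219717-192219966 on the minus strand for Cox6a2, chr1:205408274-205408523 on the minus strand for Cox8b, chr1:213833624-213833873 on the minus strand for Cox8a and chr10:38089979-38090228 on the minus strand for Uqcrq.
Cox6a2: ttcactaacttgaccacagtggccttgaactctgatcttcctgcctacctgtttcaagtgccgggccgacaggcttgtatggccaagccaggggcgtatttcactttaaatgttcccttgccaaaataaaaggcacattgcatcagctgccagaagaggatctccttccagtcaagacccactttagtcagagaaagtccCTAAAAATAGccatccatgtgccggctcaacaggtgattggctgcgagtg
Cox8b: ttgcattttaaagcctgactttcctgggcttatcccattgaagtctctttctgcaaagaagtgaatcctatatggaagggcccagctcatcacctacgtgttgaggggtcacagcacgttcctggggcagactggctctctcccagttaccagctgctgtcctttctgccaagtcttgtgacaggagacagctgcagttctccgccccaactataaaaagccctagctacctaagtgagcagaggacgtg
Cox8a: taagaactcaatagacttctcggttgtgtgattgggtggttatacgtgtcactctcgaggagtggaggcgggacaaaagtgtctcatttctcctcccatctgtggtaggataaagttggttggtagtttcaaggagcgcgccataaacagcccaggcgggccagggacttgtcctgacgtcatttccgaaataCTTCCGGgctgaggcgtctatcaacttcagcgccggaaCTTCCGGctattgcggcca
Uqcrq: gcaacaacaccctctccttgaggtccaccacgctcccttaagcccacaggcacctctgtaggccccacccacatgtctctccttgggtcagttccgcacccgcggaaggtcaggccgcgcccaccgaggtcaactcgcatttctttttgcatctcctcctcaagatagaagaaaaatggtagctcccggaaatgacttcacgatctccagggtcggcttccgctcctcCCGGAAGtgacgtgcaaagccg

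The Cox6a2 sequence holds a MEF2 match, CTAAAAATAG, from 50 to 41 bases before the start; Cox8b holds none of the 4 motifs; Cox8a holds 2 GABP matches and Uqcrq holds 1. CG pairs are few before the muscle forms, 5 in Cox6a2 and 4 in Cox8b, and more frequent before Cox8a (15) and Uqcrq (15); the median was 17 over the 37 respiratory genes with a sequence and 6 over all 27457 genes. Few CG pairs were not limited to muscle forms, since Cox7b also had 5. A GABP match was found for 13 of the 37 genes (35.1%), against 7.74% of all genes, where all genes are those with a sequence of this length. The GABP motif itself holds a CG pair, and CG pairs were more frequent before the respiratory genes (median 17 against 6). The part of CG pairs in the GABP share was not tested. NRF-1 (Atp5mc2), MEF2 (Cox6a2) and the estrogen-related receptors (Atp5mc3) had a match in 1 gene each (2.7%), against 1.18%, 3.07% and 1% of all genes. Matches of different motifs overlapped in 0 cases. The median Plin2 difference was −0.61 for the genes with a GABP match and −0.39 for those without, and the median Plin5 difference was 0.11 and 0.06. Those without a match include the testis forms Cox6b2 and Cox8c, with weak signals and Plin2 differences of 0.00 and −0.05. A match is a string of letters in this window and not a measured site.

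ATP synthase genes were lower on the Plin2 array by amounts that differed between its parts. On the Plin2 array all 16 genes were below 0, 13 of them by at least 1.2-fold and 4 by 1.5-fold, with a median of −0.41. Among all genes, 15.5% were lower by 1.2-fold and 5.8% by 1.5-fold. On the Plin5 array 13 were above 0, 2 below and 1 equal, with a median of 0.07 and none past 1.2-fold. The catalytic head, F1, had the smallest differences as a group. Its 5 genes had Plin2 differences from −0.45 (Atp5f1a, subunit alpha) to −0.11 (Atp5f1c, subunit gamma), with a median of −0.29, and 3 of them were lower by 1.2-fold. Atp5f1b, the catalytic subunit beta, stood at 13.22 (Plin5), 12.86 (Plin2) and 13.15 (empty vector). Atp5f1d, subunit delta, stood at 13.47 (Plin5), 13.29 (Plin2) and 13.47 (empty vector), and Atp5f1c at 9.46, 9.32 and 9.43 in the same order.

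The small membrane subunits of ATP synthase, some of which help it form dimers, had the lowest Plin2 median of its parts, −0.70. The parts also differed in signal, with a median level of 12.75 for F1 and 10.58 for these membrane subunits. Bright signals can be compressed. Within F1 the dimmest gene, Atp5f1c (mean level 9.40), had the smallest Plin2 difference. Among the other F1 genes, the dimmest, Atp5f1a (12.36), had the largest decrease and the brightest, Atp5f1d (13.41), the smallest. The part of signal strength in the order of the parts was not tested. Atp5mk stood at 11.56 on the Plin5 array, 10.45 on the Plin2 array and 11.41 on the empty vector array, a Plin2 difference of −0.95 (1.94-fold lower). Atp5mg stood at 10.85 (Plin5), 10.09 (Plin2) and 10.79 (empty vector), a difference of −0.70. Atp5me stood at 8.57 (Plin5), 7.74 (Plin2) and 8.37 (empty vector), a difference of −0.64. All 3 passed 1.5-fold, and their Plin5 differences were 0.15, 0.06 and 0.20. The peripheral stalk, which holds the head still, lay between, with Plin2 differences from −0.51 (Atp5po) to −0.37 (Atp5pd) over its 4 genes. It had a median of 0.14 on the Plin5 array, led by Atp5pf at 10.90 (Plin5), 10.20 (Plin2) and 10.66 (empty vector), a Plin5 difference of 0.24. Atp5po followed at 10.89 (Plin5), 10.20 (Plin2) and 10.71 (empty vector), a Plin5 difference of 0.19.

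The c ring, the rotor in the membrane, is built from one protein encoded by 3 genes. Atp5mc1 stood at 12.41 on the Plin5 array, 11.50 on the Plin2 array and 12.30 on the empty vector array, a Plin2 difference of −0.79 (1.73-fold lower). Atp5mc3 stood at 12.96 (Plin5), 12.50 (Plin2) and 12.89 (empty vector), a difference of −0.39. Atp5mc2 stood at 11.76 (Plin5), 11.50 (Plin2) and 11.78 (empty vector), a difference of −0.28, so 1 of the 3 genes passed 1.5-fold with the probe sets used. A second, dimmer probe set of Atp5mc3 gave −0.61, past 1.5-fold, so this count depends on the probe set. Atp5if1, which inhibits ATP hydrolysis by the enzyme, did not follow the subunits. It stood at 10.53 (Plin5), 10.63 (Plin2) and 10.65 (empty vector), giving −0.12 for Plin5, the lowest Plin5 difference of the 44. Its Plin2 difference of −0.02 turned to 0.05 after loess correction and to 0.02 after quantile normalization.

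Several probe sets of a gene showed how far probe sets for the same gene agreed within an array. Of the 44 genes, 8 had more than 1 probe set. The gap between the differences of these sets had a median of 0.01 for Plin5 and 0.02 for Plin2, both against the empty vector, and was at most 0.05 for 5 of 8 genes in each. The largest gaps were 0.13 (Atp5mc2, Plin5) and 0.22 (Atp5mc3, Plin2). The Plin5 difference of Atp5mc2 was 0.11 by its other probe set and −0.02 by the one used, the only gene of the 8 with opposite signs. Such gaps come from the same RNA on the same array, so they leave out the spread between animals, labellings and arrays. In addition, 23 of the 44 genes have at least 1 named pseudogene in the rat assembly, up to 8 for Atp5mg and 7 for Cycs, and signal from near-identical copies cannot be told apart from that of the genes themselves.

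The direct comparison of the Plin5 and Plin2 arrays had a median difference of 0.52 log2 units over the 44 genes (1.43-fold). Of these, 33 were higher on the Plin5 array by at least 1.2-fold, against 16.6% of all genes, and 19 by 1.5-fold, against 7.19%. Cox8a was the single gene lower by 1.2-fold (−0.30), against 22% of all genes, and none was lower by 1.5-fold, against 11.3%. The medians were 0.75 for complex II, 0.57 for complex III with cytochrome c, 0.39 for complex IV and 0.50 for ATP synthase. Uqcrq (1.12), Atp5mk (1.11) and Sdhb (1.00) had the largest differences. In the lists described next, the extremes of this comparison were Ndufb4 (1.08) and Ndufa7 (0.44) for complex I, Sdhaf3 (1.07) and Uqcc3 (0.00) for assembly factors, Coq10a (1.19) and Coq10b (−0.07) for coenzyme Q, and Chchd3 (0.76) and Phb2 (0.05) for mitochondrial mass. Among the markers they were Myh2 (1.21) and Acta1 (0.02) for muscle fibres, Myh7 (2.19) and Tnni1 (0.00) for slow fibres, Cd163 (−0.39) and Trem2 (−3.29) for macrophages, Ncr1 (−0.12) and Cd8a (−1.56) for T and natural killer cells, and Kera (−0.28) and Chad (−1.71) for tendon; Cfd, of the fat cell markers, stood at −0.82. This comparison uses the Plin2 and Plin5 arrays of the comparisons above and is no further evidence for them.

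Other genes of the pathway were described from lists with earlier results known. Complex I subunits, the other large entry point of electrons, had a median of 0.10 for Plin5 and −0.63 for Plin2 over 32 genes. All 32 were lower by 1.2-fold on the Plin2 array, against 15.5% of all genes, from −0.32 (Ndufc2) to −0.84 (Ndufa3). On the Plin5 array the range ran from −0.01 (Ndufa7) to 0.28 (Ndufa5). There 1 gene was higher by 1.2-fold, against 1.52% of all genes. Whether complex I differs from complexes II to V cannot be tested with 1 array per group. Of the factors that assemble complexes II to V, 28 of 44 listed were measured, and 17 were lower by 1.2-fold on the Plin2 array, with a median of −0.44. The lowest was Sdhaf3, a factor for the iron-sulfur subunit of complex II (−0.97), and Coa4 and Sco1 had no difference. On the Plin5 array 1 was higher by 1.2-fold, Tmem70 (0.27), which helps assemble ATP synthase, and the lowest was Uqcc3 (−0.03).

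Genes that supply or reduce coenzyme Q had a median of 0.07 for Plin5, from −0.05 (Gpd2) to 0.26 (Coq8a) with none past 1.2-fold. Their Plin2 median was −0.62, with a range from Coq10a (−1.02) to Coq10b (0.07). For Plin2, 12 of 18 were lower by 1.2-fold, against 15.5% of all genes. Genes that mark mitochondrial mass, such as citrate synthase (Cs) and the porins, had a median of 0.06 for Plin5, led by Cs (0.15), and of −0.37 for Plin2, where 10 of 16 were lower by 1.2-fold from Chchd3 (−0.66) to Phb2 (0.00). The lowest for Plin5 was Phb1 (0.00). Of the fat cell markers, Cfd was the one that differed, at −0.35 for Plin5 and 0.47 for Plin2.

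**Figure D4:**
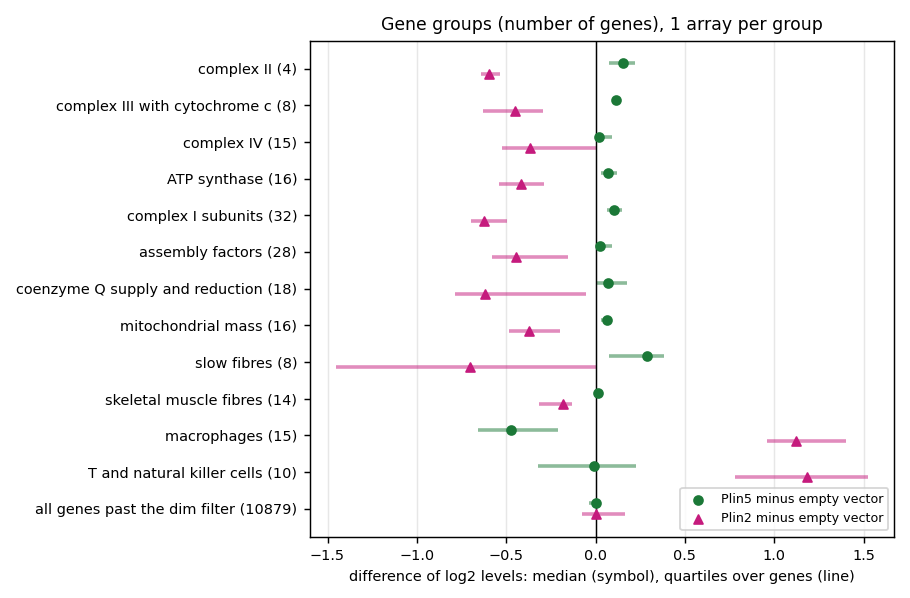
Median difference of log2 levels from the empty vector array (symbols) with the quartiles over genes (lines) for the 4 complexes, other mitochondrial lists, fibre and immune cell markers and all genes above the dim level; the number of genes is in brackets. Respiratory lists lie between 0.02 and 0.16 for Plin5 and between −0.37 and −0.63 for Plin2, and macrophage markers at −0.47 and 1.12.

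Markers of other cells moved with these results. All 15 macrophage markers were higher on the Plin2 array by 1.2-fold (median 1.12), against 19.4% of all genes. On the Plin5 array 10 of the 15 macrophage markers were lower (median −0.47), against 5.71% of all genes. Their summed linear level was 12331 on the Plin5 array, 33686 on the Plin2 array and 15540.3 on the empty vector array, and none lay under the dim level. Trem2 was the extreme marker in both comparisons, at −1.33 for Plin5 and 1.96 for Plin2, while Cd14 (0.21) was the highest for Plin5 and Cd163 (0.43) the lowest for Plin2. Of the 10 markers of T and natural killer cells, 9 were higher on the Plin2 array (median 1.18), from Ncr1 (0.12) to Gzmb (2.14). On the Plin5 array they went both ways. By 1.2-fold, 2 were higher (Gzma at 1.25 and Gzmb at 0.79), against 1.52% of all genes. There were 3 lower, against 5.71% of all genes, the lowest being Cd4 (−0.40). The median of the 10 markers was −0.01. Their summed levels were 4631 (Plin5), 9768 (Plin2) and 4725 (empty vector). Cd4, which rat macrophages also carry, was the brightest of the 10 (11.16 on the empty vector array, against 8.12 for Cd3e). It weighs most in these sums, so they do not measure T and natural killer cells alone. Of the 6 tendon markers measured, 5 were lower on the Plin5 array (median −1.10), from Chad (−1.94) to Scx (−0.10). On the Plin2 array 3 were lower and 1 higher, against 15.5% and 19.4% of all genes. The tendon median there was −0.32, from Kera (−0.75) to Scx (0.38). The summed levels were 1431 (Plin5), 2572 (Plin2) and 3184 (empty vector).

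Muscle fibre markers moved as well. The 14 skeletal muscle fibre markers, a list made up largely of fast fibre genes, were all below 0 on the Plin2 array (median −0.18). Of the 14, 6 were lower by 1.2-fold, against 15.5% of all genes. They were the fast fibre genes Myh2 (−0.98), Pvalb (−0.60), Tnni2 (−0.42), Actn3 (−0.33), Tnnc2 (−0.27) and Myh4 (−0.27). The smallest differences among the 14 were those of Acta1 (−0.02) and Ckm (−0.07). On the Plin5 array these 14 markers ran from Pvalb (−0.02) to Myh2 (0.24), none past 1.2-fold, with summed levels of 168622 (Plin5), 142412 (Plin2) and 165846 (empty vector). Of the 8 slow fibre markers, 4 were higher by 1.2-fold on the Plin5 array (median 0.29), against 1.52% of all genes. On the Plin2 array 5 were lower (median −0.70), against 15.5% of all genes. Myh7, the slow myosin heavy chain, had differences of 0.44 (Plin5) and −1.75 (Plin2). At the other end were Tpm3 for Plin5 (0.00) and Atp2a2 for Plin2 (0.03). Their summed levels were 19976 (Plin5), 10399.8 (Plin2) and 16997 (empty vector). The part of these cell and fibre markers in the respiratory gene differences was not tested.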

How the data were processed

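The authors deposited 1 table of RMA values per the submitters' processing notes, which name no version. These deposited values were taken as log2, which RMA returns, because no source names the log base. Chip description and genome build were not given in the sources used here. Per the labels' protocols, RNA had an integrity number above 8 and 100 ng went into labelling. Nothing gives a depth, and 3 arrays limit the precision. RMA gave 38.7% of probe sets exactly equal values on all 3 arrays.

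Of 29214 probe sets, 15310 had 1 gene symbol in the platform annotation, 323 several and 13581 none listed; the last kinds were left out. The probe set with the highest mean was used per gene. The symbols of all 44 genes equalled those of their Entrez numbers in RefSeq (GRCr8). Of the list symbols, 1 matched through a synonym and 24 were not measured; a pseudogene was not taken for its parent gene. Members and lists were chosen with earlier results of these data known. All genes in the families were counted. Atp5f1e and Atp5pb, not named above, had Plin2 differences of −0.33 and −0.44. Values on each array were given for the 3 largest differences each way per complex, and for the isoform pairs. For each other list, differences were given for the highest and lowest genes. The counting and medians were run on simulated data with known shifts. The noise there was chosen, because 1 array per group gives no spread. That run therefore checks the code and not the results. Alternatives were the fold limit (1.5), the dim filter (none, or the median gene), median-centring, quantile normalization, loess (span 0.3), other choices of probe set, means, and leaving out genes of equal value. Scripts ran in Python 3.11.15 with pandas 2.3.3, numpy 2.4.6, statsmodels 0.14.6 (loess), scipy 1.17.1 and, for the plots, matplotlib 3.10.9.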

Additional observations from a re-analysis of the deposited data

How the results depend on the processing

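Of 195 alternative values for 27 results, 172 stayed within a factor of 1.5 of the reported value (or within 0.02 log2 units), 22 moved further and 1 changed sign. Part of the 172 could not move. Removing the dim filter leaves the 44 genes and their values unchanged, and median-centring cannot change a gap between paired forms. The choice of probe set cannot change a gene with 1 probe set. The count of 172 is therefore no measure of robustness. The median over the 44 genes ranged from 0.06 to 0.11 for Plin5 and from −0.47 to −0.26 for Plin2, both against the empty vector, and from 0.36 to 0.61 for Plin5 against Plin2. The value that changed sign was Cox6a2 minus Cox6a1 for Plin5 after quantile normalization (−0.00698). At 1.5-fold, 0 genes were higher for Plin5, 0 higher and 12 lower for Plin2, and 19 higher and 0 lower for Plin5 against Plin2. Loess correction gave 2 higher and 22 lower genes (19.1% and 14.9% of all genes) and a median of −0.26 for Plin2, complex medians of −0.20 (IV) and −0.27 (ATP synthase), and for Plin5 against Plin2 2 lower genes and a complex IV median of 0.20. After median-centring 0 genes were higher for Plin2 and 0 lower for Plin5 against Plin2, and the Plin5 medians were 0.054 (complex IV) and 0.11 (ATP synthase). Quantile normalization gave 0.045 for ATP synthase (Plin5) and 2 lower genes for Plin5 against Plin2. The complex IV median was 0.069 for Plin5 and 0.58 for Plin5 against Plin2 with the dim filter at the median gene, and 0.083 and 0.58 without genes of equal value, settings that keep 12 and 10 genes for Plin5 and 12 and 13 for Plin5 against Plin2, in place of 15. The cause of the other moves was not tested. No paired analysis was possible because each group is 1 array. No replicate could be left out for the same reason.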
